A study of Bos taurus with 8 samples.

Results

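Ribosome biogenesis and nucleolar genes were compared between bovine granulosa cells held at low oxygen and at normal oxygen. The set is a list of 35 genes for snoRNP proteins (small nucleolar ribonucleoproteins), nucleolar phosphoproteins, RNA polymerase I with its cofactors, and the processing and assembly factors of the ribosomal subunits. Membership rests on the function of each gene, and the list was drawn up with earlier results of these data known. A gene was taken as measured where a transcript cluster, the probe group that stands for 1 transcript on the array, carried that gene symbol and no other. This held for 34 of the 35 genes, each with 1 cluster, among 24415 clusters in all. The only cluster of *NPM1*, the gene of the nucleolar protein nucleophosmin, carried a further symbol, and no value is given for it.

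The study asked how granulosa cells, the steroid-producing cells that line the ovarian follicle, respond to a fall in oxygen. The cells came from small to medium follicles of abattoir ovaries and were frozen and thawed. They were cultured on collagen in α-MEM with FSH, IGF-1 and androstenedione, all at 21% O2 until day 6. The LOL group (low oxygen level, 4 arrays) was then kept at 1% O2 and the NOL group (normal oxygen level, 4 arrays) at 21% O2 until harvest on day 8. The samples were unsorted primary cells, and neither the labels nor the methods say that the 4 samples of a group were separate cultures. The p-values therefore cover the variation among these 8 samples and no more, and that variation may be technical.

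The nucleolus is where RNA polymerase I copies the ribosomal DNA and where the long precursor transcript is modified, cut and packed with ribosomal proteins. Box C/D snoRNPs methylate riboses of the rRNA and box H/ACA snoRNPs convert uridines to pseudouridine, each led to its site by a guide RNA. Large sets of helicases, scaffold proteins and GTPases then assemble the small and the large subunit, and in dividing cells this work takes up much of the capacity for transcription and protein synthesis.

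Signals are log2 values of the robust multichip average method (RMA), which puts the arrays on a common scale, and each difference is LOL minus NOL in log2 units. The array medians were 4.12 to 4.18 in LOL and 4.06 to 4.08 in NOL, and the correlation across clusters was 0.993 to 0.996 within a group and 0.973 to 0.978 between groups. The 10 granulosa cell markers averaged 7.49 to 7.63 in the LOL arrays and 8.29 to 8.42 in the NOL arrays. The 8 leukocyte markers averaged 3.30 to 3.64 and 3.20 to 3.29, the 6 endothelial markers 3.42 to 3.65 and 3.03 to 3.19, the 3 theca markers 4.96 to 5.27 and 5.0 to 5.20, the 5 erythroid markers 2.95 to 3.05 and 2.73 to 2.83, and the 7 oocyte markers 2.39 to 2.60 and 2.24 to 2.33, each in LOL and in NOL. Single markers moved within these means: the endothelial marker *CLDN5* differed by 1.93 and the theca cell marker *INSL3* by 1.03, both past 2-fold. The mean signal of *INSL3* was 8.48 in LOL and 7.44 in NOL, while the theca marker *CYP17A1* had 3.35 and 3.38. *LHCGR*, counted here with the theca markers, differed by -0.82. The study names *LHCGR* among the genes of FSH signaling. The endothelial marker *TEK*, dim and with overlapping groups, differed by 0.42 (limma adjusted p = 0.0131), while *PECAM1*, *CDH5*, *VWF* and *KDR* did not pass. Of the 10 granulosa markers, 7 passed as lower and 1, *HSD17B1*, as higher, by 1.94 (adjusted p = 2.8e-06). The part of these markers in the results was not tested. The array of LOL 3 was the lowest of the LOL arrays for 15 of the 34 genes (44.1%), against 29.3% of all clusters.

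Of the 34 measured genes, 18 fell and 6 rose at LOL past an adjusted p of 0.05 (limma with Benjamini-Hochberg adjustment over all clusters), and 10 did not pass. Of all 24415 clusters 20.5% passed as lower and 20.5% as higher (41.0% in either direction), while among the 13142 clusters with a mean log2 signal of at least 4 these shares were 37.8% and 31.4%. The 18 falls were thus 52.9% of the genes and the 6 rises 17.6%. The median difference of the 34 genes was -0.21, against 0.06 over all clusters and -0.02 over clusters with a signal of at least 4. The falls held all 7 genes grouped here as box C/D and box H/ACA snoRNP proteins, and 5 of the 6 genes of RNA polymerase I transcription. *RRP9*, also a snoRNP protein but grouped with the small subunit factors, rose. The rises held the gene with the widest change of the 34, *DDX10*, and *NOLC1*. As the RNA came from whole cultures, fewer cells of a type and less RNA per cell cannot be told apart.

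Most of these changes were small in size. Adding a threshold of more than 2-fold left 1 lower gene, *NHP2*, and 2 higher genes, *NOLC1* and *DDX10*, while 2.65% of all clusters were lower and 2.22% higher by that rule. The range of the 34 differences was -1.23 to 1.63. The spread within a group was narrow, with a median SD over the genes of 0.0903 in LOL and 0.0741 in NOL. In 18 genes every LOL array lay below every NOL array and in 5 genes above, and in 11 genes the groups overlapped. Over all clusters these shares were 20.3% below and 19.1% above, or 39.4% without overlap. Without LOL 3, 16 of the 34 genes were lower and 8 higher.

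**Figure D1:**
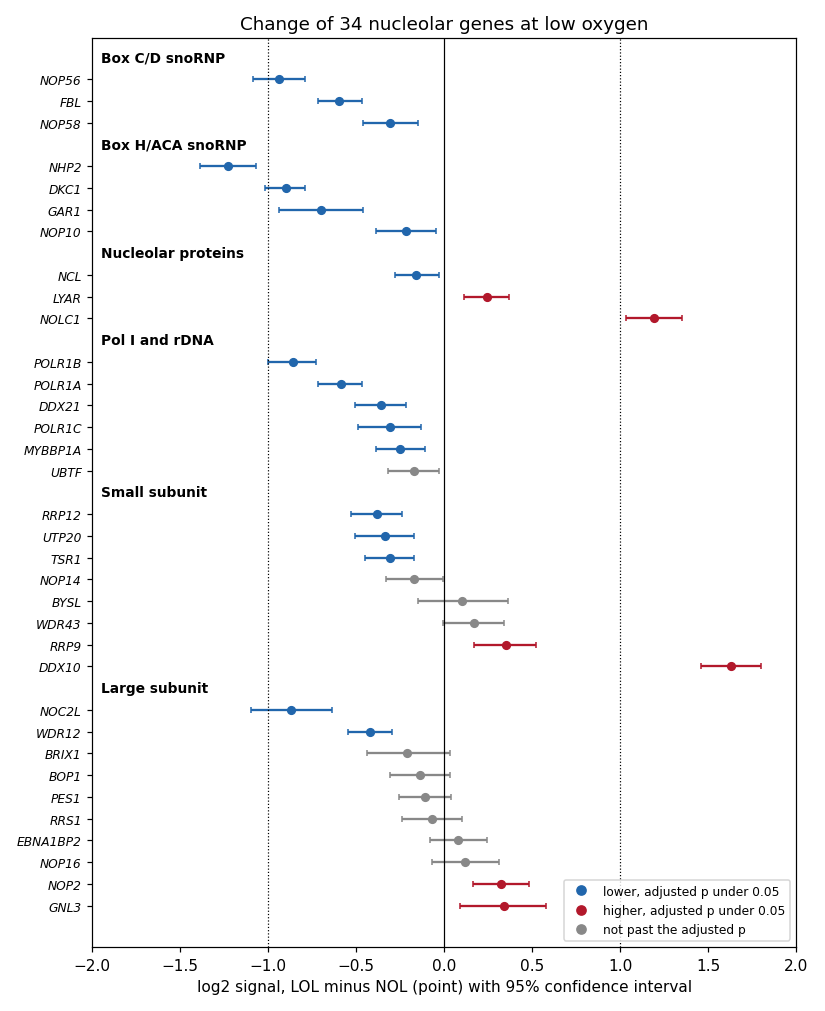
Log2 difference (LOL minus NOL, x axis) of each of the 34 measured genes with its 95% confidence interval, grouped by role along the y axis. Genes past an adjusted p of 0.05 are blue where lower and red where higher, and the others are grey. The genes of the box C/D, box H/ACA and RNA polymerase I groups all lie left of 0, and *DDX10* at 1.63 and *NOLC1* at 1.19 stand farthest to the right.

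The cultures also differed in markers of dividing cells. Of 18 measured proliferation markers, 17 were lower at LOL and 1 did not pass, and the mean log2 signal of the list was 4.88 to 4.92 in the LOL arrays and 5.83 to 6.03 in the NOL arrays. Their part in the differences of the ribosome biogenesis genes was not tested.

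All 7 genes grouped as box C/D and box H/ACA snoRNP proteins passed as lower at LOL, with a median difference of -0.70. The grouping leaves out *RRP9*, a snoRNP protein counted with the small subunit factors, which was higher (difference 0.35, limma adjusted p = 0.00523). *SNU13*, a further box C/D protein that was listed with the assembly genes, did not pass (difference 0.14, limma adjusted p = 0.122). The mean deviation of these 7 genes from their NOL means was -0.65, -0.66, -0.76 and -0.73 in LOL 1 to LOL 4, and between -0.03 and 0.02 in the NOL arrays. The 4 low oxygen arrays were thus alike in this shift, and 6 of the 7 genes had no overlap between the groups.

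*NHP2*, a protein of the box H/ACA core that also belongs to telomerase, had the deepest fall of the 34 genes. Its signal was 5.16, 5.03, 4.87 and 4.95 in LOL 1 to LOL 4, against 6.25, 6.27, 6.18 and 6.24 in NOL 1 to NOL 4. Every LOL array was more than a full log2 unit below every NOL array. The difference was -1.23 ± 0.0718 (SE, n = 4 per group, limma adjusted p = 7.8e-07), or 2.35-fold lower, and 1.30% of all clusters had a lower difference.

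*DKC1* encodes dyskerin, the pseudouridine synthase of the same particle. It measured 6.62, 6.61, 6.59 and 6.68 in the LOL arrays and 7.55, 7.52, 7.53 and 7.52 in the NOL arrays. Neither group spanned more than a small part of the gap between them, and the signal was 1.87-fold lower at LOL (difference -0.90 ± 0.0531 SE, limma adjusted p = 8.1e-07). *GAR1*, which binds next to dyskerin in the mature particle, varied more among arrays, at 4.51, 4.44, 4.29 and 4.11 in LOL and 4.99, 5.18, 4.83 and 5.16 in NOL. Its groups were still apart, with a difference of -0.70 ± 0.108 (SE, limma adjusted p = 4.8e-04).

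*NOP10*, the smallest core protein of the particle, differed least. It had 8.70, 8.72, 8.59 and 8.57 in the LOL arrays and 8.68, 8.91, 8.95 and 8.91 in the NOL arrays. NOL 1 lay within the LOL range, so the groups overlapped. The difference was -0.22 ± 0.0761 (SE, limma adjusted p = 0.0441). The call was lost without LOL 1, 2, 3 or 4 or without NOL 2, 3 or 4 (adjusted p = 0.0511 to 0.11), and without NOL 1 the difference was -0.28 (adjusted p = 0.0097).

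The 3 genes of the box C/D group fell as well. *NOP56*, a scaffold of the particle, had 6.10, 6.31, 6.19 and 6.30 in the LOL arrays and 7.24, 7.18, 7.10 and 7.15 in the NOL arrays. It was 1.92-fold lower at LOL, with no overlap (difference -0.94 ± 0.068 SE, limma adjusted p = 2.9e-06). *FBL* encodes fibrillarin, the methyltransferase of the particle. Its signals were 5.83, 5.87, 5.83 and 5.88 in the LOL arrays and 6.48, 6.38, 6.51 and 6.43 in the NOL arrays, and again no arrays of the groups overlapped. The difference was -0.60 ± 0.0563 (SE, limma adjusted p = 1.7e-05), which is 1.51-fold lower. *NOP58*, the partner scaffold of *NOP56*, had 7.84, 7.75, 7.62 and 7.74 in LOL and 8.14, 8.04, 8.04 and 7.96 in NOL, a smaller difference of -0.31 (limma adjusted p = 0.00487).

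**Figure D2:**
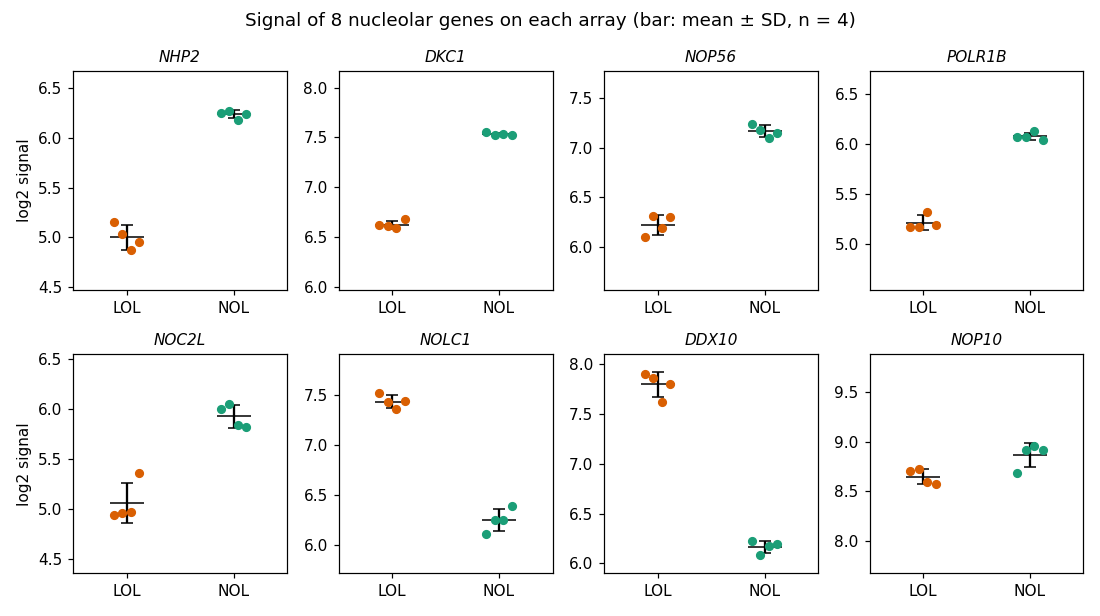
Log2 signal (y axis) of single genes in the 4 LOL arrays (left in each panel) and the 4 NOL arrays (right), with points for arrays and bars for the mean and SD. *NHP2*, *NOP56* and *POLR1B* are lower in all LOL arrays and *NOLC1* and *DDX10* higher, with gaps between the groups that exceed the spread within them.

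The 6 genes of ribosomal DNA transcription all had every LOL array below every NOL array, and 5 of them passed the adjusted p, with a median difference of -0.34. Their mean deviation from the NOL means was -0.44, -0.45, -0.40 and -0.42 in LOL 1 to LOL 4. The shift was thus nearly the same in each LOL array.

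*POLR1B* and *POLR1A* encode the subunits that form the catalytic core of RNA polymerase I. *POLR1B* had 5.17, 5.17, 5.32 and 5.19 in the LOL arrays and 6.07, 6.07, 6.13 and 6.04 in the NOL arrays, which is 1.82-fold lower at LOL (difference -0.86 ± 0.0599 SE, limma adjusted p = 2.2e-06). *POLR1A* had 5.20, 5.14, 5.23 and 5.22 in LOL and 5.80, 5.72, 5.83 and 5.81 in NOL, or 1.51-fold lower (difference -0.59 ± 0.0563 SE, limma adjusted p = 1.8e-05). Both were low in all 4 LOL arrays. *POLR1C*, a subunit that RNA polymerase I shares with RNA polymerase III, had 4.78, 4.88, 4.91 and 5.05 in LOL and 5.37, 5.20, 5.18 and 5.11 in NOL. Its groups came close, with LOL 4 just under NOL 4, and the difference was -0.31 (limma adjusted p = 0.0109).

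Among the cofactors, *DDX21*, a nucleolar RNA helicase, was 6.91 to 6.99 in the LOL arrays and 7.19 to 7.39 in the NOL arrays (difference -0.36, limma adjusted p = 0.00101). *MYBBP1A*, a nucleolar protein described as a repressor of ribosomal DNA transcription, was 5.68 to 5.87 in LOL and 6.00 to 6.07 in NOL (difference -0.25, adjusted p = 0.00973). With quantile normalization *MYBBP1A* no longer passed (adjusted p = 0.0897). *UBTF*, the factor that binds along active ribosomal DNA repeats, had 6.35, 6.39, 6.30 and 6.23 in LOL and 6.50, 6.42, 6.45 and 6.59 in NOL. The groups touched without overlap, and the difference of -0.17 had an adjusted p of 0.0565, with 95% confidence limits of -0.32 and -0.03. Among the alternatives, *UBTF* passed in 4 of 15.

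The 3 measured nucleolar phosphoproteins and chaperones went in different directions. *NOLC1* encodes the phosphoprotein that accompanies snoRNPs between the nucleolus and Cajal bodies. It had 7.52, 7.43, 7.36 and 7.44 in the LOL arrays and 6.11, 6.25, 6.25 and 6.39 in the NOL arrays. All LOL arrays were thus nearly a log2 unit or more above all NOL arrays. The difference was 1.19 ± 0.0724 (SE, limma adjusted p = 1.0e-06), or 2.28-fold higher, and 1.56% of all clusters had a larger rise.

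*LYAR*, a nucleolar protein tied to cell growth, had 5.64, 5.56, 5.54 and 5.67 in LOL and 5.34, 5.40, 5.39 and 5.31 in NOL. The rise of 0.24 passed (limma adjusted p = 0.00781) but not after centring each array on its median (adjusted p = 0.0548). *NCL* encodes nucleolin, an abundant RNA-binding protein of the nucleolus. Its signals were 8.37, 8.30, 8.32 and 8.40 in LOL and 8.53, 8.50, 8.45 and 8.54 in NOL. The groups did not overlap, yet the difference was only -0.16 (adjusted p = 0.0468), and leaving out any of the 8 arrays in turn ended the call (adjusted p = 0.0538 to 0.116).

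Of the 18 factors that build the subunits, 5 were lower (27.8%), 4 were higher (22.2%) and 9 did not pass, with a median difference of -0.09. These shares were near the 20.5% of all clusters in each direction, and below the 37.8% and 31.4% of clusters with a signal of at least 4. The mean deviation from the NOL means was 0.06, 0.06, -0.09 and -0.01 in LOL 1 to LOL 4. The LOL arrays thus lay on both sides of the NOL mean.

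Of the 8 small subunit factors, 3 fell, 2 rose and 3 did not pass. *DDX10*, an RNA helicase whose yeast counterpart acts in the early cleavages toward the small subunit, had the widest change of the 34 genes. It measured 7.90, 7.86, 7.62 and 7.80 in the LOL arrays and 6.22, 6.08, 6.17 and 6.19 in the NOL arrays. The lowest LOL array was far above the highest NOL array. The difference was 1.63 ± 0.0741 (SE, limma adjusted p = 1.9e-07), or 3.10-fold higher, and 0.713% of all clusters had a larger rise.

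The other riser of the small subunit was *RRP9*, a protein of the snoRNP that takes part in the early cleavages, with 4.32, 4.30, 4.16 and 4.18 in LOL and 4.06, 3.91, 3.84 and 3.76 in NOL. Signals under 4 are dim on these arrays, so no fold is given, and its log2 difference of 0.35 holds for the signals as measured (limma adjusted p = 0.00523). The 3 fallers moved by similar amounts. *RRP12*, needed in yeast for the export of both subunits, was 4.70 to 4.87 in LOL and 5.08 to 5.27 in NOL (difference -0.38, adjusted p = 0.00108). *UTP20*, part of the early small subunit precursor, was 5.23 to 5.56 in LOL and 5.67 to 5.79 in NOL (difference -0.34, adjusted p = 0.00524). *TSR1*, which resembles a GTPase and acts late on the small subunit, was 6.55 to 6.64 in LOL and 6.81 to 6.99 in NOL (difference -0.31, adjusted p = 0.00252).

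The remaining small subunit factors overlapped between the groups. *NOP14*, part of the same early precursor, was 5.01 to 5.15 in LOL and 5.12 to 5.38 in NOL (difference -0.17, limma adjusted p = 0.0798), and passed without NOL 3 (adjusted p = 0.0295). *WDR43*, a factor that links early processing to transcription, was 6.59 to 6.90 in LOL and 6.51 to 6.69 in NOL (difference 0.17, adjusted p = 0.117). It passed without LOL 3 (adjusted p = 0.0316). *BYSL*, the gene of bystin, was 5.35 to 5.87 in LOL and 5.47 to 5.66 in NOL, with LOL 3 lowest of the 8 arrays (difference 0.10, 95% confidence limits -0.15 and 0.36).

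Of the 10 large subunit factors, 2 fell, 2 rose and 6 did not pass, which is close to the 20.5% of all clusters in each direction. Among clusters with a signal of at least 4, to which all 10 belong, the shares were larger, at 37.8% lower and 31.4% higher. In 7 of the 10 the groups overlapped, while 39.4% of all clusters had no overlap. *NOC2L*, which takes part in the assembly of the large subunit in yeast and binds histones in human cells, had 4.94, 4.96, 4.97 and 5.36 in the LOL arrays and 6.00, 6.05, 5.84 and 5.82 in the NOL arrays. LOL 4 stood above the other LOL arrays and was still below every NOL array. The gene was 1.83-fold lower at LOL (difference -0.87 ± 0.104 SE, limma adjusted p = 9.0e-05), and without LOL 4 the difference was -0.97.

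*WDR12* forms a complex with *PES1* and *BOP1* that is required for the maturation of the large subunit rRNA. It had 5.86, 5.83, 5.83 and 5.84 in LOL and 6.32, 6.27, 6.29 and 6.17 in NOL, a fall of 1.34-fold with almost no spread among the LOL arrays (difference -0.42 ± 0.0569 SE, limma adjusted p = 2.0e-04). The partners were not past the threshold. *PES1* was 6.17 to 6.38 in LOL and 6.27 to 6.39 in NOL (difference -0.11, adjusted p = 0.211). *BOP1* was 5.12 to 5.34 in LOL and 5.21 to 5.45 in NOL (difference -0.14, adjusted p = 0.172).

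*NOP2*, which methylates a cytosine of the large subunit rRNA and is known as a proliferation antigen, was higher in all LOL arrays. It had 6.80, 6.82, 6.55 and 6.65 in LOL and 6.34, 6.39, 6.40 and 6.40 in NOL (difference 0.32 ± 0.0723 SE, limma adjusted p = 0.00516). *GNL3*, the gene of the nucleolar GTPase nucleostemin, had 6.02, 6.01, 5.59 and 5.73 in LOL and 5.66, 5.53, 5.44 and 5.37 in NOL. LOL 3 lay below NOL 1, so the groups overlapped, and the difference was 0.34 (adjusted p = 0.0325). The call ended without LOL 1 or 2 or without NOL 2, 3 or 4 (adjusted p = 0.058 to 0.0865).

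The other large subunit factors are early assembly proteins whose groups overlapped. *BRIX1* was 6.91 to 7.25 in LOL and 7.13 to 7.54 in NOL (difference -0.21, limma adjusted p = 0.141), and *RRS1* was 4.92 to 5.13 in LOL and 5.02 to 5.26 in NOL (difference -0.07, adjusted p = 0.508). *EBNA1BP2* was 6.83 to 6.96 in LOL and 6.66 to 6.90 in NOL (difference 0.08, adjusted p = 0.412). *NOP16* was 6.37 to 6.73 in LOL and 6.41 to 6.54 in NOL (difference 0.12, adjusted p = 0.299) and passed without LOL 3 (adjusted p = 0.0498). A missed threshold does not show that these levels were equal at both oxygen levels.

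**Figure D3:**
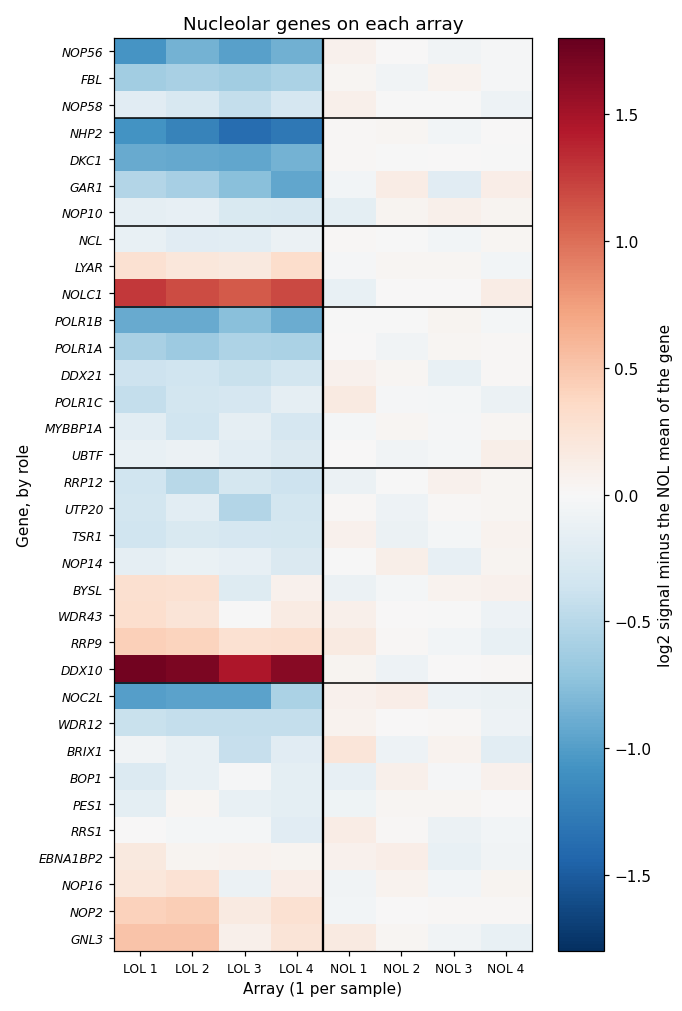
Deviation of each array from the NOL mean of the gene (colour, log2 units) for the 34 measured genes (y axis, by role) in the 4 LOL arrays (left) and the 4 NOL arrays (right). The genes of the box C/D, box H/ACA and RNA polymerase I groups are low in each of the 4 LOL arrays. The mean deviation was -0.65 to -0.76 for the box C/D and box H/ACA genes together.

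The transcripts of several complexes changed by unequal amounts. For 15 pairs of genes within 4 complexes, the log2 ratio was taken within each array and compared between groups with an exact two-sided permutation test. The 35 splits of 4 against 4 arrays allow no p under 0.0286. In 12 of the 15 pairs the ratio differed, with every LOL array on 1 side of every NOL array (exact p = 0.0286, adjusted over the 15 pairs 0.0357). The ratios were added after the values of the single genes were seen, so these p-values are no independent test. Pairs that share a gene are also not independent. The share among pairs of other genes was not taken, so the count cannot be read as particular to these complexes.

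In the box H/ACA particle, *NHP2* fell by 1.01 more than *NOP10*, *DKC1* by 0.69 more and *GAR1* by 0.48 more. *NHP2* also fell by 0.53 more than *GAR1* and by 0.33 more than *DKC1*. The changes of *DKC1* and *GAR1* differed by -0.20, which was within the spread (exact p = 0.171, adjusted 0.183). *NOP10* was thus the member of its particle that departed least from the NOL level.

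In the box C/D particle, *NOP56* fell by 0.64 more than *NOP58* and by 0.34 more than *FBL*, and *FBL* fell by 0.29 more than *NOP58*. Both scaffolds of 1 particle therefore changed unequally on these arrays. In RNA polymerase I, *POLR1B* fell by 0.55 more than *POLR1C* and by 0.27 more than *POLR1A*, and *POLR1A* fell by 0.28 more than *POLR1C*. In the complex of *PES1*, *BOP1* and *WDR12*, *WDR12* fell by 0.31 more than *PES1*. The difference of -0.28 between *WDR12* and *BOP1* was not past the threshold (exact p = 0.0571, adjusted 0.0659), and *BOP1* and *PES1* differed by -0.03 (exact p = 0.714).

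The wider pathway was read from 140 further genes in 5 lists, of which 130 were measured. Of these, 61 were lower at LOL (46.9%) and 28 higher (21.5%), with a median difference of -0.18. By the rule with more than 2-fold, 5 were lower and 4 higher, against 2.65% and 2.22% of all clusters. Over all clusters 20.5% passed in each direction, and among clusters with a signal of at least 4, to which nearly all of these genes belong, 37.8% were lower and 31.4% higher.

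Among 10 measured further genes of RNA polymerase I, 3 were lower and 4 higher, a mixed picture beside the member genes. *TAF1D*, a subunit of the factor that selects the ribosomal promoter, had 7.83, 7.90, 7.67 and 7.87 in the LOL arrays and 6.60, 6.55, 6.66 and 6.39 in the NOL arrays, 2.41-fold higher (limma adjusted p = 1.1e-06). *POLR1F*, a polymerase subunit, had 5.28, 5.33, 5.21 and 5.44 in LOL and 6.02, 6.07, 6.09 and 6.09 in NOL, 1.68-fold lower (adjusted p = 9.0e-06). Each was apart in all arrays. Also higher, without overlap, were the polymerase subunit genes *POLR1E* (difference 0.24, adjusted p = 0.00595) and *POLR1G* (0.33, adjusted p = 0.00319). *TAF1C* was higher as well (0.18, adjusted p = 0.0345). The initiation factor gene *RRN3* differed by -0.26 (adjusted p = 0.0237). Its call was lost without LOL 3 or 4 or NOL 3 or 4 (adjusted p = 0.0571 to 0.0635). The termination factor gene *TTF1*, dim in both groups, differed by -0.36 on the signals as measured (adjusted p = 0.0103).

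Among 13 genes of snoRNP assembly and maturation, 6 were lower and 3 higher. *TGS1*, which trimethylates the cap of snoRNAs, had 8.56, 8.45, 8.04 and 8.47 in LOL and 7.01, 6.90, 7.23 and 7.31 in NOL, 2.41-fold higher and apart in all arrays (limma adjusted p = 2.8e-05). Among the 6 lower genes, chosen here after the values were seen, *RUVBL1*, an ATPase of snoRNP assembly, was 5.80 to 6.02 in LOL and 6.68 to 6.82 in NOL (difference -0.82, adjusted p = 5.7e-06). *SHQ1*, a chaperone of dyskerin, was 3.74 to 4.27 in LOL and 4.67 to 4.76 in NOL (difference -0.73 on the signals as measured, adjusted p = 2.3e-04). The box C/D assembly factors *NUFIP1* and *PIH1D1* had differences of 0.32 (adjusted p = 0.00924) and 0.27 (adjusted p = 0.0203). The call of *PIH1D1* was lost without LOL 2, NOL 3 or NOL 4 (adjusted p = 0.0512 to 0.0581).

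Of 43 further small subunit genes, 22 were lower and 9 higher. *NAT10*, the acetyltransferase of small subunit rRNA, had 5.12, 5.24, 5.32 and 5.51 in LOL and 6.57, 6.60, 6.45 and 6.48 in NOL, 2.34-fold lower (limma adjusted p = 2.5e-06). *LTV1*, a factor of late small subunit maturation, was 4.77 to 5.02 in LOL and 5.94 to 6.21 in NOL, 2.27-fold lower (adjusted p = 2.0e-06). *AATF* went the other way, at 6.77, 6.59, 6.55 and 6.60 in LOL and 5.32, 5.33, 5.20 and 5.28 in NOL, 2.54-fold higher (adjusted p = 3.3e-07). Its protein takes part in small subunit processing and is also known from cell survival.

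Of 52 further large subunit genes, 25 were lower and 11 higher. *NOL9*, the kinase that acts on a cut end of the rRNA precursor, had 3.38, 3.47, 3.30 and 3.46 in LOL and 5.13, 5.19, 5.21 and 5.20 in NOL, at least 3.43-fold lower (limma adjusted p = 3.8e-08), the LOL signals being dim. *FTSJ3*, a methyltransferase of precursor processing, was 3.87 to 4.23 in LOL and 4.98 to 5.19 in NOL, 2.07-fold lower (adjusted p = 6.9e-06). *RBM34*, an RNA-binding protein, was 4.69 to 5.36 in LOL and 3.66 to 3.97 in NOL, at least 2.48-fold higher (adjusted p = 3.5e-05).

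Of 12 genes of the RNA exosome and its cofactors, which trim and degrade processing products, 5 were lower and 1 higher. The helicase gene *MTREX* was 6.63 to 6.78 in LOL and 7.24 to 7.42 in NOL (difference -0.63, limma adjusted p = 4.2e-05), and the cofactor gene *MPHOSPH6* was 3.92 to 4.27 in LOL and 4.80 to 5.12 in NOL (difference -0.85, adjusted p = 6.8e-05). *EXOSC9*, of the exosome ring, differed by -0.38 (adjusted p = 0.00173). The nuclease gene *DIS3* was the 1 gene in the other direction, at 0.21 (adjusted p = 0.0427), with overlapping groups. Its call was lost without any array but LOL 3 and NOL 1 (adjusted p = 0.0813 to 0.11).

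The cytosolic ribosomal protein genes, which encode the building blocks of the subunits, were also compared. Of 78 such genes 38 were measured, the others having no cluster with that single symbol. None was lower past the adjusted p in limma, none at an unadjusted p under 0.05 and none by one-way analysis of variance. At an unadjusted p under 0.05, 12 were higher, and past the adjusted p 7 were (18.4%, against 20.5% of all clusters). Among clusters with a signal of at least 4, to which nearly all of these genes belong, 31.4% were higher and 37.8% lower. In 13 of the 38 every LOL array lay above every NOL array, against 19.1% of all clusters. The count of 7 was not stable: it was 4 without LOL 1, LOL 2, NOL 3 or NOL 4, 2 with median centring and 15 with an intensity trend. The median difference was 0.10 with a range of -0.45 to 0.36. On the same scale the median was 0.06 over all clusters and -0.02 over clusters with a signal of at least 4. The smallest adjusted p values were those of *RPS28*, with 10.32, 10.35, 10.44 and 10.28 in LOL and 9.97, 10.10, 9.99 and 9.89 in NOL (difference 0.36, limma adjusted p = 0.00162), *RPL24* (0.26, adjusted p = 0.006) and *RPL38* (0.25, adjusted p = 0.00939). After median centring *RPL38* no longer passed (adjusted p = 0.0505). Ribosomal protein genes have many near-identical processed copies in mammalian genomes, so the origin of these signals is uncertain.

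**Figure D4:**
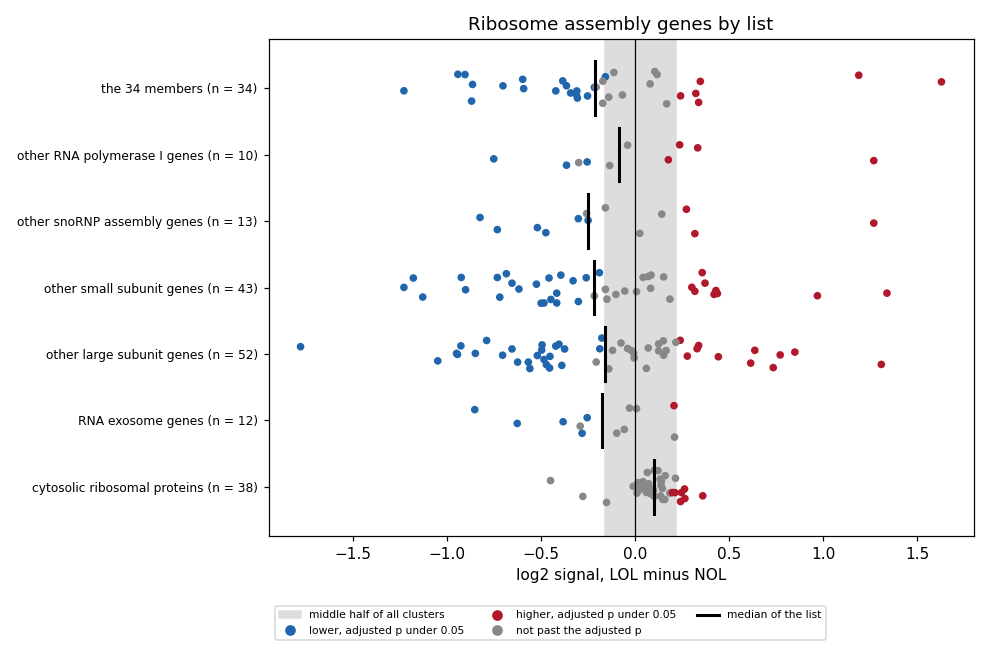
Log2 difference (LOL minus NOL, x axis) of each measured gene, for the 34 genes and 6 lists of further genes (y axis), with a black bar at each median, colour for the direction of genes past an adjusted p of 0.05 and a grey band for the interquartile range of all clusters (-0.16 to 0.22). The medians of the 34 genes (-0.21) and of the 5 assembly lists lie left of 0, while the cytosolic ribosomal protein genes lie around a median of 0.10.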

How the data were processed

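Total RNA of 8 samples was measured on 1-colour Affymetrix bovine gene arrays, 1 array each. The deposited log2 values were made by the authors with RMA (version not given in the sources used here), which corrects background, normalizes between arrays and summarises probes, and no further step was applied. Groups follow the labelled oxygen levels.

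All 24415 clusters were compared with limma 3.58.1 in R 4.3.3 (2 groups, moderated variances, two-sided, Benjamini-Hochberg adjustment), which was tested on simulated data. "Lower" and "higher" mean an adjusted p under 0.05. The annotation gives 1 symbol for 18550 clusters, several for 595 and none for 5270. A gene with several clusters is represented by the brightest. A mean signal under 4 was taken as dim, and a fold against it as a lower bound. Arrays have no counting depth, and their number limits the precision.

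The genes and lists were chosen with earlier results of these data known, and the ratios within complexes were added after the values were seen. So was the naming of a few further genes outside the rule given next. All measured genes of the set are named, and of each further list up to 3 with the smallest adjusted p among those past 2-fold, or past the adjusted p where none was, and every gene against the majority direction where 5 or fewer. The 15 alternatives were one-way analysis of variance without moderation, limma with an intensity trend, quantile normalization, median centring, a filter on dim clusters, a replicate block, averaging the clusters of a gene, and leaving out each array in turn.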

Additional observations from a re-analysis of the deposited data

Results flagged for a closer look

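In 6 of 68 groups of 4 arrays of the 34 genes, 1 array lay apart from the other 3 by more than Dixon's critical value at the 95% level (gap divided by range). Chance gives about 1 in 20, or 3.4 of 68. Of the LOL groups, *NOC2L* had LOL 4 at 5.36 against 4.94 to 4.97 in the other LOL arrays (ratio 0.929), *POLR1B* had LOL 3 at 5.32 against 5.17 to 5.19 (0.867) and *EBNA1BP2* had LOL 1 at 6.96 against 6.83 to 6.85 (0.846). Of the NOL groups, *UTP20* had NOL 2 at 5.67 against 5.78 to 5.79 in the other NOL arrays (0.917), *NOP10* had NOL 1 at 8.68 against 8.91 to 8.95 (0.852) and *NOP2* had NOL 1 at 6.34 against 6.39 to 6.40 (0.833). Among the further genes named, *NUFIP1* had LOL 3 at 5.21 against 5.49 to 5.51 in the other LOL arrays (0.933).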

How the results depend on the processing

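No gene of the 34 changed sign under any of the 15 alternatives, and 19 of the 24 that passed kept their call in all of them. The exceptions were *NOP10*, *NCL*, *GNL3*, *LYAR* and *MYBBP1A*. The count of lower genes was 18, and 16 to 20 under the alternatives, and that of higher genes 6, and 4 to 8. With median centring 2 genes were lower by more than 2-fold in place of 1, and the median difference of the 34 genes was -0.28, against -0.21 as reported and -0.16 with quantile normalization. *NCL*, the 1 lower nucleolar phosphoprotein, did not pass with quantile normalization or a replicate block (0 genes), nor without any 1 array (0). The 1 higher exosome gene was lost with median centring and with analysis of variance (0 each), and leaving out 1 array gave counts of 0 to 1. The gene, *DIS3*, kept its call only without LOL 3 or NOL 1 among these, and the count of 1 without LOL 4 or NOL 2 was of another gene. The higher ribosomal protein genes numbered 7, but 15 with an intensity trend, 2 with median centring, 12 with analysis of variance, 12 without dim clusters, and 4 to 8 without 1 array. The change of *BOP1* minus that of *PES1* was 0.02 without LOL replicate 2, against -0.03 with all arrays, and ranged from -0.07 to 0.02 as 1 array was left out. The causes were not tested.

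The labels do not say whether equal replicate numbers mark paired samples. Deviations of same-numbered arrays correlated at -0.0268 to 0.114, and those of other pairs at -0.106 to 0.0759. So few arrays cannot settle whether the samples were paired. With the number as a replicate block, 16 of the 34 genes were lower and 6 higher. The probe-level files were not used here, and signals near background limit the dim genes.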
